A study of Bombyx mori with 4 samples.

Results

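The sequences described here were 999 silkworm gene models, predicted transcripts with names beginning KWMTBOMO, that the authors annotated as transposon and that were at least 2000 nt and shorter than 4000 nt. They were chosen by name, annotation and length alone, with no measured value, out of 18596 sequences in the table. The table held 16880 gene models, of which 2580 were annotated as transposon, and 4296 transposons in all. In the study, RNA crosslinked to BmVasa was identified by FAST-iCLIP, in which UV light links protein to RNA, BmVasa is recovered with an antibody and the RNA fragments left on it are sequenced. The cells were BmN4, a cultured line from Bombyx mori ovary, and both groups were electroporated with siRNA, against luciferase in the control (Luc KD) or against Spindle-E (Spn-E KD). The comparison asks which RNAs BmVasa contacts when Spn-E, whose loss lowers the piRNA-loaded form of Siwi, is depleted. Each group had 2 replicates, which the authors merged, so 1 pooled library per group was compared.

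Vasa is a DEAD-box RNA helicase of germ cells and a core component of nuage, the perinuclear granule where PIWI proteins cut transposon transcripts and make new piRNAs from them. In silkworm germ cells BmVasa helps to pass transcripts cut by the PIWI protein Siwi on to its partner Ago3. Transposons are mobile sequences present in many copies, and a gene predictor that meets an intact or decayed copy reports its open reading frame as a gene. A transposon-annotated gene model can therefore be 1 copy, or part of 1 copy, of an element that also exists elsewhere in the genome, and reads from similar copies cannot be told apart. The table gives no family name for these gene models, so each is named here by its identifier.

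The pooled libraries held 1012269 (Luc KD) and 1059323 (Spn-E KD) genome-mapped reads, of which 384001 and 403022 mapped in the sense direction to the sequences of the table. A single read equalled 0.988 RPM (reads per 1000000 genome-mapped reads) under Luc KD and 0.944 RPM under Spn-E KD. The most abundant sequence of the table, the transposon BmTE_RM5-571, is not a member and took 18.0% of the sense reads under Luc KD and 27.3% under Spn-E KD. The table also pairs no gene symbol with any gene model, so depletion of Spn-E could not be checked here. All intervals below are 95% intervals and cover counting error only, and no value has a replicate check.

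Together the 999 members took almost the same share of sense reads in both libraries. They held 36609 of the sense reads under Luc KD, or 9.53% (Wilson interval 9.44 to 9.63), and 38486 under Spn-E KD, or 9.55% (9.46 to 9.64). The difference was 0.0158 percentage points, with a Newcombe interval of -0.114 to 0.146. Scaled to the genome-mapped reads, the summed level was 36165 RPM under Luc KD and 36331 RPM under Spn-E KD. The equality depended on what the reads were set against. With BmTE_RM5-571 left out of the base, the share was 11.6% under Luc KD and 13.1% under Spn-E KD, a difference of 1.51 points (1.34 to 1.68). With the most abundant member, KWMTBOMO14744, left out instead, the difference was -0.193 points (-0.318 to -0.0683). Over the same lengths, protein-coding gene models went from 12.8% to 10.2% of sense reads, while sequences of the transposon collection went from 3.05% to 3.64%. Transposon-annotated gene models of 4000 nt or longer went from 7.39% to 5.96%, and those shorter than 2000 nt from 2.74% to 2.69%.

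The members' reads were very unevenly spread. In Luc KD 141 members had no read and a further 354 had 1 to 3 reads, and under Spn-E KD these numbers were 172 and 339. No read was found in either library for 71 members. The exact Poisson interval of a count of 0 reaches 3.69 reads, and 3 reads equalled 2.96 RPM under Luc KD and 2.83 RPM under Spn-E KD. At the other end, 7 members under Luc KD and 5 under Spn-E KD had 1000 reads or more, which together were 37.1% and 33.7% of the members' reads. Over both libraries 13 members made up 50% of the summed RPM, and the 100 members with the highest mean RPM held 85.4% of the members' reads under Luc KD and 85.6% under Spn-E KD. The other 899 members each had a mean of at most 40.6 RPM.

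Per length, a typical member carried fewer reads than a protein-coding gene model of the same size, and the few highest members carried more. The median RPKM, the RPM per kb of sequence, was 1.25 under Luc KD and 1.07 under Spn-E KD for the members. It was 3.26 and 2.61 for the 2473 protein-coding gene models of 2000 to 3999 nt. At the 95th percentile the order turned around, with 29.0 RPKM under Luc KD and 34.1 RPKM under Spn-E KD for the members and 22.7 and 17.1 RPKM for the protein-coding models. The highest member reached 1103 RPKM under Luc KD and 1411 RPKM under Spn-E KD, above the highest protein-coding model of these lengths at 753 and 714 RPKM. The 119 sequences of the transposon collection in this length range had medians of 9.06 and 6.74 RPKM. RNA abundance was not measured in these libraries, so a high level of the RNA and a high rate of contact with BmVasa cannot be told apart in any of these values.

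Reads did not follow the number of gene models along the length range. Gene models were most frequent at 3000 to 3099 nt, with 152 members, yet these held 3.78% of the members' summed RPM under Luc KD and 3.45% under Spn-E KD. The 86 members of 2800 to 2899 nt held 35.6% and 35.2%, more than any other 100 nt class in both libraries. Of the 12 members with the highest mean RPM, 8 fell in that class. The median member of the 2800 to 2899 nt class had only 0.688 RPKM under Luc KD, so its large sum came from those few. Across 500 nt classes, the 296 members of 2500 to 2999 nt held 49.9% of the summed RPM under Luc KD and 52.4% under Spn-E KD. The class was also first with the 10 members of highest mean RPM left out. Members with no read were least frequent at 3500 to 3999 nt, 1.86% of 161 under Luc KD and 9.32% under Spn-E KD. In the shorter classes the share was 15.9% to 17.0% under Luc KD and 14.7% to 23.0% under Spn-E KD. Protein-coding gene models with no read were also least frequent at 3500 to 3999 nt, 3.46% under Luc KD and 4.23% under Spn-E KD. Their shorter classes had 4.33% to 6.56% and 4.75% to 7.08%. Over all 999 members, length and mean RPKM had a Spearman rho of -0.017, given as a description.

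**Figure D1:**
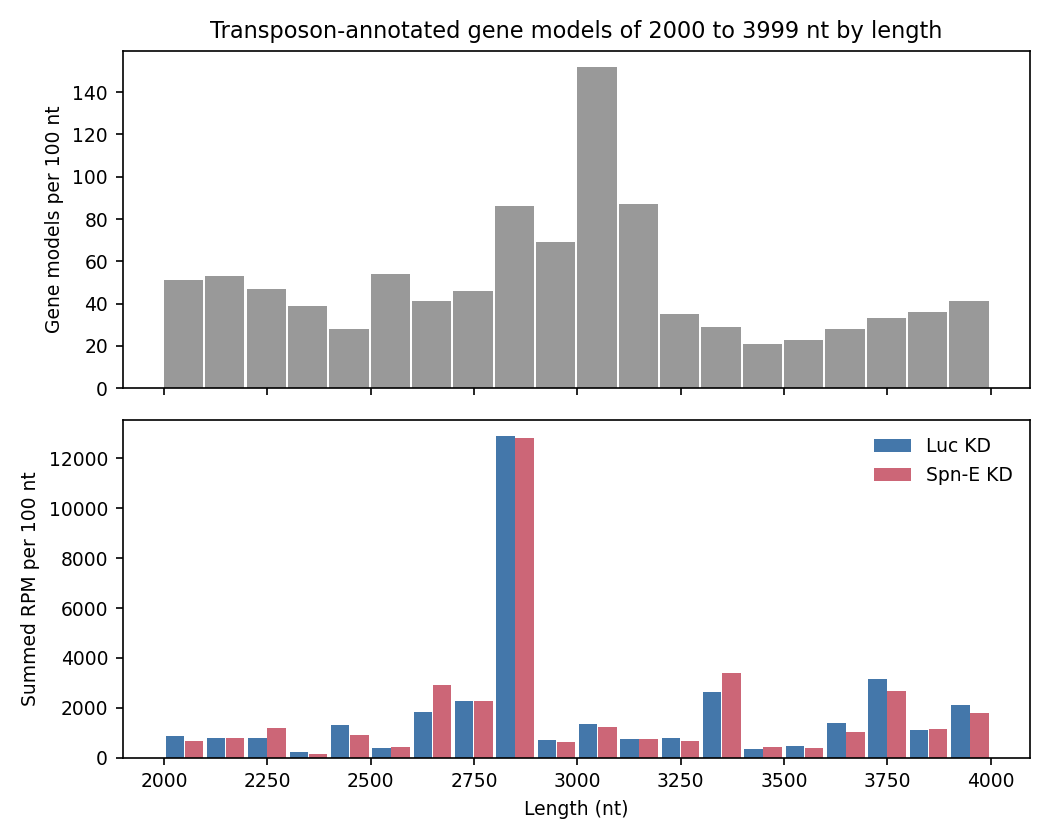
Members by length in 100 nt classes: the number of gene models (grey bars, upper panel) and their summed RPM (lower panel) in the pooled Luc KD (blue) and Spn-E KD (red) libraries. The 152 members of 3000 to 3099 nt form the tallest class in number, while the 86 members of 2800 to 2899 nt hold 35.6% and 35.2% of the summed RPM.

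The member with the most reads in both libraries was KWMTBOMO14744 (2839 nt), with 3170 reads under Luc KD and 4242 under Spn-E KD, or 1103 and 1411 RPKM. Its log2 fold change was 0.35 (interval 0.29 to 0.42, adjusted p = 1.44e-23, exact binomial test, Benjamini-Hochberg adjustment over the 4727 sequences whose mean was 10 RPM or more). A log2 fold change here sets Spn-E KD against Luc KD after 1 RPM was added to each, so that low sequences appear to change less than they did, and a sequence was called where the adjusted p was under 0.05. KWMTBOMO16649, only 1 nt shorter at 2838 nt, came next with 2246 and 3092 reads (log2 fold change 0.40, 0.32 to 0.47). KWMTBOMO16668 (3367 nt) had 1688 and 2517 reads (0.51, 0.42 to 0.60). These were the 3 of the 12 highest members that were called higher under Spn-E KD, a call made for 3.74% of all tested sequences and for 28.6% of the 140 with a mean of 300 RPM or more.

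The other 9 of the 12 highest members were called lower under Spn-E KD, a call made for 8.23% of all tested sequences and for 45.7% of those at 300 RPM or more, with log2 fold changes from -0.53 to -0.36. KWMTBOMO14873 (3726 nt) led them with 2543 reads under Luc KD and 1978 under Spn-E KD (log2 fold change -0.43, adjusted p = 4.92e-21, exact binomial test). KWMTBOMO09921 (2780 nt) had 1509 and 1146 reads. KWMTBOMO04754 (2835 nt) had 1270 and 921 reads, the largest fall of the 9 at -0.53. In each of these the Poisson intervals of the libraries were apart. KWMTBOMO05365 (2898 nt) followed with 1166 and 934 reads. The remaining 5 of the 9 were almost equal to one another, with 942 to 973 reads under Luc KD and 724 to 791 under Spn-E KD. They were KWMTBOMO01589 (2856 nt), KWMTBOMO14963 (2853 nt), KWMTBOMO14964 (2854 nt), KWMTBOMO14965 (2855 nt) and KWMTBOMO10774 (2468 nt). Of these, 4 differ in length by 1 nt steps, and KWMTBOMO14963 to KWMTBOMO14965 are consecutive identifiers. Reads that fit several copies were placed at random or counted on each copy, so whether these are separate signals or 1 signal seen on several copies cannot be told apart. The calls of 6 of the 9 (the 5 alike members and KWMTBOMO05365) were lost when fold changes were centred on protein-coding gene models, where their log2 fold changes were -0.19 to -0.058. In edgeR's exact test with an assumed coefficient of variation of 0.1 between pooled libraries, all 12 highest members lost the call (adjusted p 0.16 to 0.43). The exact binomial test compares 2 pooled libraries, not the conditions.

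**Figure D2:**
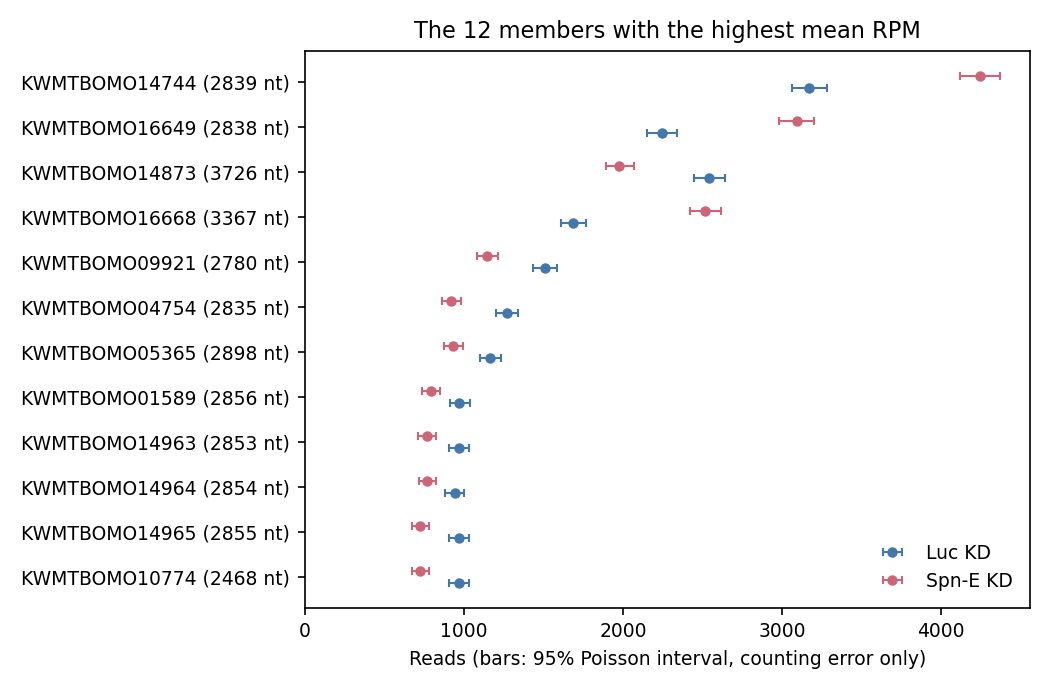
Reads of the 12 members with the highest mean RPM under Luc KD (blue) and Spn-E KD (red), with 95% Poisson intervals that cover counting error only. KWMTBOMO14744, KWMTBOMO16649 and KWMTBOMO16668 lie higher under Spn-E KD, and the other 9 lie lower, the lowest 5 of them at 942 to 973 reads under Luc KD.

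Of the 999 members, 259 (25.9%) had a mean of at least 10 RPM and were tested. In Spn-E KD 35 were called higher, 13.5% of those tested, against 3.74% of all 4727 tested sequences. A further 34 were called lower, 13.1% of those tested, against 8.23% of all tested sequences. These shares are not matched on level, with which the share called rises. At the deposited scaling, the members called higher gained 5150 RPM in sum and those called lower fell by 4851 RPM. Tested members that were not called changed by -56.1 RPM in sum, and members not tested by -78.1 RPM. The called lists were picked by direction in these same libraries, so their opposite signs follow from the rule. Changes of at least 2-fold, a rule of size with no test, were found upward in 25 members (9.65%, against 3.13% of all tested sequences) and downward in 27 (10.4%, against 9.54%). The downward share at 2-fold was thus near that of the table as a whole. The split depended on the scaling. It was 57 higher and 15 lower when centred on the median of protein-coding gene models, and 52 and 18 with TMM scaling. Per gene-library read without BmTE_RM5-571 it was 49 and 25. The split over all 4727 tested sequences moved the same way. It went from 177 higher and 389 lower to 315 and 139, 280 and 167, and 252 and 224, in that order. Against an assumed coefficient of variation of 0.2 between pooled libraries, edgeR's exact test called 0 members higher and 2 lower (40 had an unadjusted p under 0.05). Those 2 were KWMTBOMO15052 and KWMTBOMO12080. Over all 4727 tested sequences the same test called 0 higher and 8 lower.

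**Figure D3:**
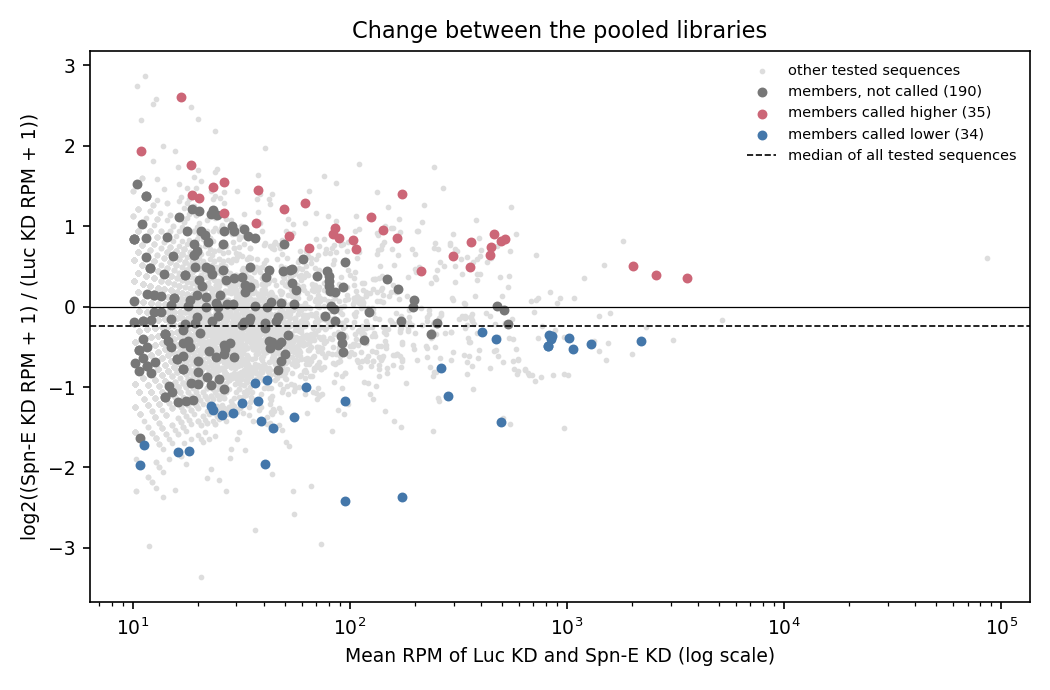
Mean RPM (log scale) against log2 fold change of the 4727 tested sequences, with the 259 tested members drawn larger: 35 called higher (red), 34 called lower (blue) and 190 not called (dark grey). The dashed line is the median of all tested sequences, -0.24, and called members lie on both sides of 0.

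At the scaling used, the middle of the tested members lay at 0. The median log2 fold change of the 259 members was 0.0015 (quartiles -0.50 and 0.53, SD 0.81). It was -0.24 over all tested sequences and -0.35 (quartiles -0.69 and 0.016, SD 0.56) over the 1078 tested protein-coding gene models of the same lengths. The spread of the other transposon groups also exceeded that of the protein-coding models, with an SD of 0.93 for the shorter transposon-annotated gene models, 0.70 for the longer ones and 0.70 for the transposon collection. The members' median lay 0.35 above that of these protein-coding models, and 0.23 to 0.59 above it with other minimum RPM values and pseudocounts. A change of scaling shifts both medians by nearly the same amount, so it could hardly alter this difference. Of the protein-coding models 16 were called higher and 74 lower. Among the 84 tested sequences of the transposon collection in the length range the median was 0.078, with 16 called higher and 7 lower. Shorter transposon-annotated gene models had a median of 0.29 over 154 tested, with 23 called higher and 19 lower. Those of 4000 nt or longer had a median of -0.096 over 207 tested, with 15 higher and 36 lower. These medians and SDs are descriptions, and no difference between them was tested.

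**Figure D4:**
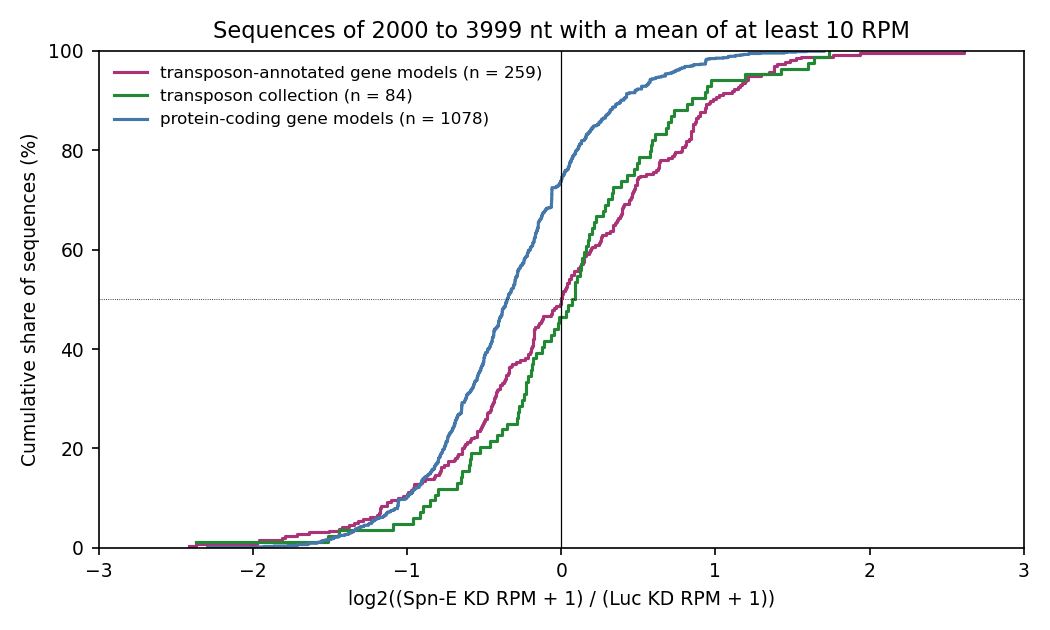
Cumulative share of tested sequences of 2000 to 3999 nt by log2 fold change, for the members (n = 259), the transposon collection (n = 84) and protein-coding gene models (n = 1078). The members' curve crosses 50% at 0.0015 and the protein-coding curve at -0.35, and the members' curve is the less steep of these.

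Members were called in both directions at each level, and in the whole table the share called rose with the level. Of the 25 members at a mean of 300 RPM or more, 10 were called higher and 12 lower, where 28.6% and 45.7% of all sequences at that level were called. Of the 20 members between 100 and 300 RPM, 8 were called higher and 3 lower, against 20.7% and 26.3% of all sequences. In the 33 members between 50 and 100 RPM, 6 were called higher and 4 lower, against 6.56% and 14.4%. The test rests on more reads in the upper classes than in the lower ones. Of the 91 members between 20 and 50 RPM, 7 were called higher and 11 lower, against 2.09% and 8.37%. Of the 90 members between 10 and 20 RPM, 4 were called higher and 4 lower, against 0.857% and 2.61%. The members' median log2 fold change, from the highest class to the lowest, was -0.21, 0.15, 0.25, 0.01 and -0.18. The protein-coding models of the same lengths had a negative median in every one of these classes, from -0.45 to -0.22.

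Among the 100 nt classes of length, several stood on the upper side and others on the lower side. In the 41 members of 2600 to 2699 nt, reads went from 1846 under Luc KD to 3099 under Spn-E KD, and of the 18 tested, 15 had a log2 fold change above 0, with 5 called higher and 0 lower. Among the tested members as a whole, 130 of 259 (50.2%) lay above 0. Of all tested sequences 34.5% lay above 0, 3.74% were called higher and 8.23% lower. At 2700 to 2799 nt 9 of 12 tested members lay above 0 (3 called higher and 1 lower), and at 2200 to 2299 nt 9 of 13 did (3 and 0). At 3300 to 3399 nt and at 3400 to 3499 nt 8 of 10 lay above 0, with 2 and 1 called higher and 0 lower. On the lower side, 4 of 19 lay above 0 at 2800 to 2899 nt (3 called higher and 6 lower). At 2900 to 2999 nt 5 of 14 did (0 and 4), and at 3900 to 3999 nt 5 of 16 (0 and 2). At 2300 to 2399 nt 2 of 8 did (0 and 1), and at 3500 to 3599 nt 2 of 9 (1 and 0). These classes were picked out after their values were seen and have no test of their own. Those of 2600 to 2799 nt held several members with similar reads. KWMTBOMO01902 and KWMTBOMO15851 share a length of 2615 nt and had 324 and 348 reads under Luc KD and 635 and 568 under Spn-E KD, with log2 fold changes of 0.90 and 0.64. KWMTBOMO05540 (2667 nt) went from 363 to 667 reads and KWMTBOMO03134 (2677 nt) from 338 to 591. KWMTBOMO11756 (2656 nt) went from 49 to 86 reads. In the next 100 nt the same direction was called for KWMTBOMO02228 (2721 nt, 377 to 708 reads), KWMTBOMO16453 (2743 nt, 81 to 140 reads) and KWMTBOMO12537 (2752 nt, 75 to 140 reads), while KWMTBOMO09921 (2780 nt), described above, was called lower. KWMTBOMO02228, KWMTBOMO05540, KWMTBOMO01902, KWMTBOMO03134 and KWMTBOMO15851 thus had 324 to 377 reads under Luc KD and 568 to 708 under Spn-E KD, and how far they share reads was not tested.

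The largest changes among called members were found at low and middle levels. The call rule favours this order, since a member with few reads is called only where its change is large. KWMTBOMO12080 (2057 nt) fell from 296 reads under Luc KD to 59 under Spn-E KD (log2 fold change -2.37, interval -2.82 to -1.99, adjusted p = 7.93e-39, exact binomial test). KWMTBOMO15052 (2418 nt) fell from 162 to 31 reads (-2.41, -3.06 to -1.89). These 2 falls exceeded those of every other called member. The other 6 of the 8 largest falls were KWMTBOMO08556 (2994 nt, 66 to 17 reads), KWMTBOMO06009 (3882 nt, 67 to 24), KWMTBOMO08728 (2937 nt, 29 to 8), KWMTBOMO15511 (3009 nt, 26 to 7), KWMTBOMO00571 (2321 nt, 18 to 5) and KWMTBOMO11222 (2539 nt, 18 to 4). The last 4 named had 7.55, 6.61, 4.72 and 3.78 RPM under Spn-E KD, so they passed the minimum mean of 10 RPM only through Luc KD. KWMTBOMO13432 (3675 nt) and KWMTBOMO08422 (3049 nt) fell by less in log2 but from higher levels, from 735 to 283 reads (-1.44) and from 392 to 190 reads (-1.11), and were picked out after their values were seen.

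Among the 8 largest rises in log2 fold change, KWMTBOMO11470 (2297 nt) rested on the most reads, 96 under Luc KD and 267 under Spn-E KD (log2 fold change 1.40, interval 1.07 to 1.76, adjusted p = 3.13e-16, exact binomial test). KWMTBOMO08149 (2191 nt) had the largest log2 fold change, 2.61, from 4 reads to 31, with an interval of 1.39 to 4.85. KWMTBOMO11028 (2418 nt) went from 20 to 59 reads and KWMTBOMO08173 (2207 nt) from 13 to 42. The remaining 4 of the 8 largest rises had 4 to 12 reads under Luc KD and 19 to 37 under Spn-E KD. They were KWMTBOMO04483 (2124 nt), KWMTBOMO12232 (3537 nt), KWMTBOMO14554 (2422 nt) and KWMTBOMO09864 (3214 nt). KWMTBOMO08149, KWMTBOMO14554, KWMTBOMO12232 and KWMTBOMO09864 had 3.95, 3.95, 7.90 and 9.88 RPM under Luc KD. Those members passed the minimum mean of 10 RPM only through Spn-E KD, the library in which they were high.

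Members of the same length did not always move together. A length was shared to the nucleotide by 454 members, at 183 lengths. The length held by most was 2899 nt, with 11 members, none of which was tested and which had 7 reads in all under Luc KD and 6 under Spn-E KD. Among tested members there were 14 pairs of equal length, of which 10 had log2 fold changes of the same sign and 5 had mean RPM within 1.5 times of each other. The pairs at 3115 nt, all of the same sign, were formed by KWMTBOMO02486, KWMTBOMO03840 and KWMTBOMO16838, so the 14 pairs are not independent. No rate for pairs of unequal length was computed. KWMTBOMO04483 and KWMTBOMO16350 (2124 nt) were alike, with 12 and 11 reads under Luc KD and 37 and 31 under Spn-E KD, and both were called higher. At 2418 nt, by contrast, KWMTBOMO11028 was called higher and KWMTBOMO15052 lower. KWMTBOMO08173 was called higher while KWMTBOMO13358, also 2207 nt, had 21 and 19 reads and was not called. Equal length alone does not show that 2 gene models are copies of 1 element.

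Few neighbours by identifier could be compared. An identifier next to that of another member was found for 162 members, in 85 pairs and in runs of at most 3. Members were spread through the numbering, with 47 to 71 in each full block of 1000 identifiers. Of the 10 adjacent pairs in which both were tested, 9 had log2 fold changes of the same sign and 7 had mean RPM within 1.5 times, and 2 of the 10 share KWMTBOMO14964. No rate for pairs that are not adjacent was computed. KWMTBOMO14963, KWMTBOMO14964 and KWMTBOMO14965 were the closest. KWMTBOMO00634 (3948 nt, 268 and 221 reads) and KWMTBOMO00635 (2807 nt, 185 and 171 reads) also lay close, while KWMTBOMO08422 had 25.4 times the mean RPM of KWMTBOMO08423. Whether adjacent identifiers are adjacent in the genome was not tested.

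Reads in only 1 library were found for 171 members, 70 of them under Spn-E KD and 101 under Luc KD. Each of the 171 had at most 9 reads. Of all 18596 sequences, 3586 had no read under Luc KD and 3713 had none under Spn-E KD. These include 2039 with no read in either library. Absence of reads was thus more frequent under Spn-E KD there too, so the direction of the split is not particular to the members. The 6 of the 171 members with at least 5 reads were named by that size. KWMTBOMO12028 (2370 nt) had 0 reads under Luc KD and 9 under Spn-E KD, and the interval of the log2 ratio of reads began at 0.92. KWMTBOMO15517 (2052 nt) had 0 and 7 reads, with an interval from 0.46 upward. KWMTBOMO10652 (2330 nt) had 6 and 0 reads, with an interval from -0.30 downward. KWMTBOMO08553 (2994 nt), KWMTBOMO10755 (3020 nt) and KWMTBOMO14492 (2001 nt) each had 5 and 0 reads, with intervals that reached 0.06 and so included no change. None of these reached the level needed for testing, and all 6 differences rest on few reads.

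At the limits of length, the values of the nearest gene models are given as a description. The 2 nearest below 2000 nt were KWMTBOMO10204 (1996 nt, 1 read under Luc KD and 2 under Spn-E KD) and KWMTBOMO07891 (1999 nt, 3 and 3 reads). Just inside were KWMTBOMO14492 (2001 nt, 5 and 0 reads) and KWMTBOMO00367 (2005 nt, 9 and 15 reads). At the upper end, KWMTBOMO11032 (3994 nt, 17 and 5 reads) and KWMTBOMO16043 (3998 nt, 26 and 15 reads) were the last members. KWMTBOMO16647 (4003 nt, 105 and 218 reads) and KWMTBOMO11501 (4009 nt, 4 and 3 reads) lay just outside.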

How the data were processed

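BmVasa FAST-iCLIP libraries were made from 4 BmN4 samples, 2 of Luc KD and 2 of Spn-E KD, grouped by their labels. The authors trimmed adaptors with cutadapt 4.0, collapsed duplicates on a random barcode, mapped reads to a SilkBase genome assembly with STAR 2.7.9a and remapped them to gene models and transposons with Bowtie 1.3.1, in random and multiple counting modes. The deposited table holds read counts in the sense direction, made with SAMtools 1.15, as 1 column per group with the 2 replicates merged. For the deposited RPM the authors scaled the counts to 1000000 genome-mapped reads of each merged library, and the deposited RPKM values are RPM per kb of the deposited length. The authors assigned gene models to the transposons by description or by similarity to a transposon collection.

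Because replicates were merged, no test across samples could be made. The 4727 sequences whose mean reached 10 RPM were compared by an exact binomial test (two-sided) of their reads against the share given by the depths, and p-values were adjusted over all of them by the Benjamini-Hochberg method, with calls at 0.05. Shares have Wilson intervals, differences of shares Newcombe intervals, ratios of reads Clopper-Pearson intervals and single counts exact Poisson intervals. The intervals printed beside a log2 fold change are those of the ratio of reads without the pseudocount of 1 RPM. The code was tested on simulated data.

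The rule for naming members took the 12 highest by mean RPM, the 8 called members with the largest rises and the 8 with the largest falls, the highest of each 500 nt class, the nearest 2 gene models on each side of each length limit, and members of equal length to these. Others are named in the text as examples of a class or pair. The members and lists were chosen with earlier results of these data known. Alternatives changed the minimum RPM, the pseudocount, the scaling, the base of the share and the class width, and set an assumed variation in edgeR's exact test. Gene names, sequences and genome positions were not used here, since 0 gene-model identifiers matched the RefSeq gene table. Tools were edgeR 4.0.16 in R 4.3.3, and scipy 1.17.1, statsmodels 0.14.6, numpy 2.4.6, matplotlib 3.10.9 and pandas 2.3.3 in Python 3.11.15.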

Additional observations from a re-analysis of the deposited data

How the results depend on the processing

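No paired analysis was possible because each group has 1 column in which its replicates were merged, and no replicate could be left out. The difference in share of sense reads was 1.51 points without BmTE_RM5-571 and -0.193 points without the most abundant member. With a minimum of 50 RPM, 78 members were tested, of which 26 were called higher and 22 lower. Of all 863 sequences at that minimum, 139 were called higher and 253 lower. Among these members 3 were at least 2-fold higher and 6 at least 2-fold lower, and the median log2 fold change was 0.18. With no minimum, 928 members were tested, of which 27 were called higher and 28 lower, against 146 and 264 of 16557 sequences. Of these members 92 were at least 2-fold higher and 136 lower. Most of them, 67 and 109, were under 10 RPM, where a few reads make a 2-fold change. The 2-fold counts over all sequences were not computed under the alternatives. Centred on protein-coding gene models, a shift of 0.30 in log2, 57 members were called higher and 15 lower (315 and 139 of all 4727). Of the members 56 were at least 2-fold higher and 15 lower, and the median was 0.30. With TMM, a shift of 0.24, 52 members were called higher and 18 lower (280 and 167 of all 4727). Of the members 53 were at least 2-fold higher and 16 lower, and the median was 0.24. Per gene-library read without BmTE_RM5-571, a shift of 0.17, 46 were at least 2-fold higher and the median was 0.17. With an assumed coefficient of variation, edgeR's exact test called 16 members higher and 11 lower at 0.1. It called 0 and 2 at 0.2 (40 members with an unadjusted p under 0.05), and 0 and 0 at 0.4 (4 members). Of all 4727 tested sequences it called 74 higher and 117 lower at 0.1, 0 and 8 at 0.2, and 0 and 0 at 0.4. The exact binomial test gave 35 and 34 members, and 177 and 389 of all tested sequences. For the 29 called members named by the rule, 92 of 261 values under the alternatives lost the call. That total includes the pseudocount settings, under which no call could be lost because the test uses no pseudocount. Assumed coefficients of variation of 0.1, 0.2 and 0.4 removed 19, 27 and 29 of the 29 calls. Centring on protein-coding gene models removed 8 and TMM 6. Leaving BmTE_RM5-571 out removed 2 per gene-library read and 1 per genome-mapped read. The 740 members under 10 RPM were left out of the reported calls by the chosen minimum. Their median level was 1.93 RPM, so few reads were available to compare.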
